A study of Mus musculus with 24 samples.

Results

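The genes described here are 33 genes of oligodendrocytes and myelin, among 49315 genes counted in 24 mouse brain tumours. They were chosen by name as known genes of these cells, with earlier results of these data known. All 33 were found and all 33 passed the filter on low counts. The tumours grew from CT-vIII, the glioma line CT-2A-dmEGFRvIII-Firefly Luciferase, which was transduced with mouse EGFR variant III and firefly luciferase, and every group carried it. Each mouse received 200000 of these cells in the right hemisphere and, from day 6, an osmotic pump that infused the brain at 0.5 µl/h for 72 h (convection-enhanced delivery). The pump came out on day 9, and tumours were taken then (day 0) or 3 days later (day 3). The labels put 3 tumours in each of the 8 groups made by 4 treatments and 2 days. Vehicle tumours, the controls, received 2% MSA-PBS with 100 µg of a rat IgG2a antibody. αCD40 tumours received 10 to 300 µg of an antibody that activates CD40, a receptor of antigen-presenting cells, and the labels do not split that range by tumour. D2C7-IT tumours received 0.2 µg of an immunotoxin that binds EGFR and its variant and stops protein synthesis in the cell that takes it up. D2C7-IT+αCD40 tumours received both agents. The sources used here do not name strain, sex or age of the mice, or whether CT-vIII is 1 clone. The tissue was not sorted, so a library mixes RNA of implanted glioma cells with RNA of the brain around them and of cells that entered.

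Oligodendrocytes wrap axons of the brain in myelin, a stack of membrane rich in cholesterol and galactolipids, which insulates the axon and feeds it. Their precursors divide and migrate, and on leaving the cell cycle they switch on transcription factors such as Sox10 and Myrf, which turn on the genes of the sheath. Under inflammation, mature cells can take on a changed set of transcripts, among them Klk6, Serpina3n and the genes of antigen presentation.

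Across these tumours the myelin genes varied mostly as a block from library to library, and 0 of the 33 members passed edgeR's test in any of 17 comparisons between groups. DESeq2 called 1 member in 1 comparison, Car2 in the combination at day 3, and 0 in the other 16, where it called between 3 and 2771 of all genes. Levels between genes can be compared only per length: in vehicle at day 0, Mbp stood at 204 ± 63.9 RPKM (SD, n = 3), Mobp at 101 ± 35.9, Cldn11 at 88.2 ± 32.7 and Apod at 88.0 ± 39.5. Enpp6, with 1.27 ± 0.325 RPKM, and Aspa, with 2.06 ± 0.598, were the lowest. CPM are a gene's counts scaled to the library's total, and RPKM are CPM divided by the exon length in kilobases. All other levels are CPM, which can be compared between libraries for 1 gene and not between genes. Libraries held 24697576 to 48119840 counted reads.

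**Figure D1:**
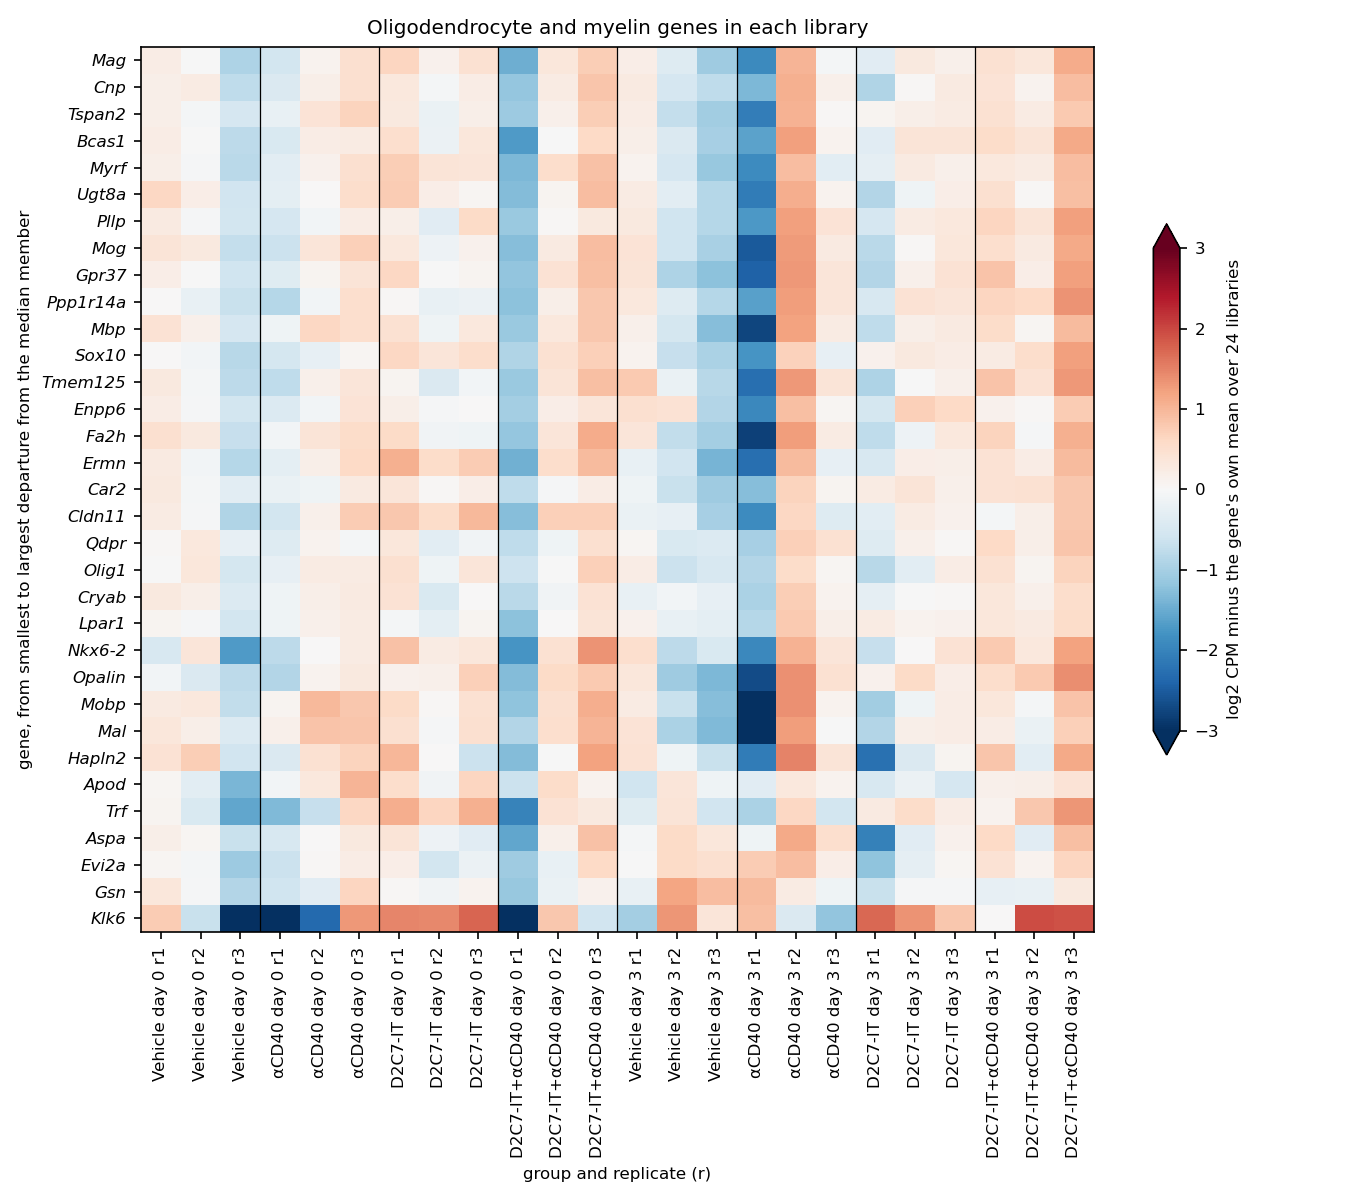
Level of each of the 33 members (rows) in each of the 24 libraries (columns), as log2 CPM minus the gene's own mean over all libraries; red is above and blue below that mean, and black lines part the 8 groups. Rows run from the gene that follows the median member most closely (Mag) to the one that departs most (Klk6). Most rows of a column share one colour. The lowest columns are αCD40 day 3 replicate 1, where Klk6, Evi2a and Gsn are nevertheless above their means, and D2C7-IT+αCD40 day 0 replicate 1.

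The 13 members that encode proteins of the sheath and its junctions carried the clearest library pattern. Mbp, myelin basic protein, which seals the inner faces of the membrane, stood at 2220, 1810 and 1150 CPM in the vehicle tumours of day 0. The other day 0 tumours held 1500, 2500 and 2340 CPM (αCD40), 2260, 1500 and 2040 (D2C7-IT) and 762, 2030 and 2860 (D2C7-IT+αCD40). The groups overlapped, and the lowest tumour was replicate 1 of the combination. At day 3 Mbp stood at 1820, 1130 and 675 CPM in vehicle, 243, 3760 and 1930 in αCD40, 966, 1850 and 1960 in D2C7-IT and 2400, 1700 and 3170 in D2C7-IT+αCD40. The lowest and the highest of all 24 values were both αCD40 tumours of day 3, replicates 1 and 2.

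Mag, an adhesion protein of the innermost myelin layer, was lowest in the same day 3 tumour, αCD40 replicate 1. It stood at 193, 128 and 79.4 CPM in vehicle at day 3, 44.5, 342 and 161 in αCD40, 132, 206 and 186 in D2C7-IT and 230, 211 and 364 in D2C7-IT+αCD40. Only the combination lay wholly above vehicle. At day 0 it ran from 60.3 CPM, in D2C7-IT+αCD40 replicate 1, to 281 CPM, in replicate 3 of the same group. Cnp, an enzyme that keeps channels open in the sheath and whose locus overlaps Dnajc7 on the other strand, ran from 121 CPM in αCD40 day 3 replicate 1 to 648 in replicate 2. Mog, a surface protein of the outermost layer, ran from 7.84 to 109 CPM between the same tumours, and Mobp, a protein of compact myelin, from 79.9 to 1760. Mal, a raft protein that sorts myelin lipids and proteins, ran from 18.1 to 397 CPM, again between those tumours. The other sheath members also had their lowest value in αCD40 day 3 replicate 1, except Hapln2, which was lowest in D2C7-IT day 3 replicate 1. Cldn11, the claudin of the radial junctions, lay between 49.4 and 361 CPM, Opalin, a membrane glycoprotein, between 2.37 and 40.9, and Ermn, a cytoskeletal protein of late oligodendrocytes that overlaps Galnt5, between 10.2 and 104. Tspan2, a tetraspanin whose locus overlaps Tshb on the other strand, lay between 24.8 and 216 CPM. Pllp, the raft protein plasmolipin, lay between 5.01 and 39.2 CPM. Hapln2, a matrix linker at nodes of Ranvier, ran from 4.70 to 62.4 CPM, and Tmem125, a membrane protein, from 1.10 to 13.6.

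Among the 6 enzymes, Car2, the carbonic anhydrase of oligodendrocytes, had a smaller ratio of highest to lowest tumour than Mbp in each of the 8 groups. At day 0 it stood at 150, 118 and 98.5 CPM in vehicle, 106, 111 and 148 in αCD40, 156, 124 and 139 in D2C7-IT and 71.7, 119 and 142 in D2C7-IT+αCD40, with all groups overlapping. At day 3 it stood at 112, 77.0 and 58.2 CPM in vehicle, 50.4, 194 and 130 in αCD40, 144, 160 and 136 in D2C7-IT and 165, 168 and 213 in D2C7-IT+αCD40. There vehicle, D2C7-IT and the combination followed each other upward with no overlap, while αCD40 spanned nearly their whole range. Qdpr, which recycles the cofactor biopterin, lay between 68.7 and 246 CPM, and at day 3 held 143, 99.9 and 103 CPM in vehicle against 208, 155 and 246 in the combination. Ugt8a and Fa2h, which make galactosylceramide and its hydroxylated fatty acids, ran from 8.74 to 79.7 and from 4.17 to 70.7 CPM. Aspa, which frees acetate for lipid synthesis, ran from 3.18 to 28.7 CPM, and Enpp6, a choline phosphodiesterase of newly formed oligodendrocytes, from 2.23 to 16.1.

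Of the 4 transcription factors, Myrf and Sox10 stayed closer to the median member than Olig1 and Nkx6-2. Sox10, which is needed in the whole lineage, stood at 54.7, 51.0 and 30.4 CPM in vehicle at day 0 and at 82.6, 69.3 and 77.2 in D2C7-IT, with no overlap. It held 37.3, 45.5 and 56.4 CPM in αCD40 and 28.9, 74.4 and 88.7 in the combination. At day 3 it stood at 58.2, 33.5 and 27.9 CPM in vehicle, 15.7, 86.6 and 45.5 in αCD40, 58.5, 65.7 and 63.2 in D2C7-IT and 64.2, 78.1 and 127 in D2C7-IT+αCD40. D2C7-IT and the combination lay above every vehicle tumour at day 3, the first of them by a margin of only 58.5 against 58.2 CPM. Myrf, the activator of myelin genes, lay between 17.4 and 123 CPM, Olig1, a helix-loop-helix factor of the lineage, between 70.0 and 209, and Nkx6-2, a homeobox factor that overlaps Inpp5a, between 4.95 and 49.0.

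Of 5 members that mark receptors or the early steps of differentiation, Gpr37, a receptor that restrains differentiation, ran from 8.68 to 116 CPM and Bcas1, a marker of cells beginning to myelinate, from 38.9 to 294. Lpar1, a lysophosphatidic acid receptor, ran from 12.3 to 49.9 CPM, and Ppp1r14a, an inhibitor of a phosphatase, from 4.52 to 35.5. Evi2a, a small membrane protein, has a gene that lies inside Nf1 on the other strand and overlaps Evi2 on the same strand. It held 8.49, 16.4 and 20.6 CPM in D2C7-IT at day 3. Vehicle then held 19.6, 29.5 and 27.4 CPM and the combination 26.5, 21.3 and 30.5. Only 1 D2C7-IT tumour reached the lowest vehicle value.

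Of the 5 secreted, stress and cytoskeletal members, Klk6, Gsn, Trf and Apod were among the 6 that departed most from the median member, together with Evi2a and Aspa. Klk6, a secreted protease that reactive oligodendrocytes make, stood at 17.7, 6.55 and 0.445 CPM in vehicle at day 0, 0.922, 2.04 and 25.6 in αCD40 and 0.658, 18.3 and 7.02 in the combination, but at 28.9, 28.3 and 35.3 CPM in D2C7-IT. D2C7-IT thus lay above every other day 0 tumour and had the narrowest spread. At day 3 Klk6 stood at 5.15, 26.2 and 13.4 CPM in vehicle, 19.4, 7.75 and 4.59 in αCD40, 34.6, 26.6 and 18.4 in D2C7-IT and 10.5, 40.5 and 39.6 in D2C7-IT+αCD40, and all groups overlapped vehicle. Trf, transferrin, carries iron and is made by oligodendrocytes, and its locus overlaps the protein-coding gene Gm20425 on the same strand. It stood at 114, 78.8 and 36.4 CPM in vehicle at day 0 and at 228, 168 and 226 in D2C7-IT. The other day 0 values of Trf were 42.9, 66.6 and 167 CPM in αCD40 and 26.9, 145 and 132 in the combination, all below the lowest D2C7-IT tumour. At day 3 it held 83.6, 142 and 72.1 CPM in vehicle, 55.7, 165 and 73.1 in αCD40, 130, 158 and 125 in D2C7-IT and 116, 188 and 271 in the combination. Apod, a lipid-binding protein, stood at day 0 at 318, 245 and 117 CPM in vehicle, 285, 376 and 620 in αCD40 and 440, 281 and 475 in D2C7-IT, which overlapped. Gsn, an actin-severing protein found in many cell types, stood at 83.0, 220 and 183 CPM in vehicle at day 3, 187, 114 and 88.3 in αCD40, 60.4, 93.5 and 93.4 in D2C7-IT and 81.1, 82.1 and 118 in the combination. Its 3 highest values, 183 to 220 CPM, came from vehicle replicates 2 and 3 and αCD40 replicate 1. Cryab, a small heat shock protein that overlaps Hspb2, lay between 33.1 and 107 CPM.

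**Figure D2:**
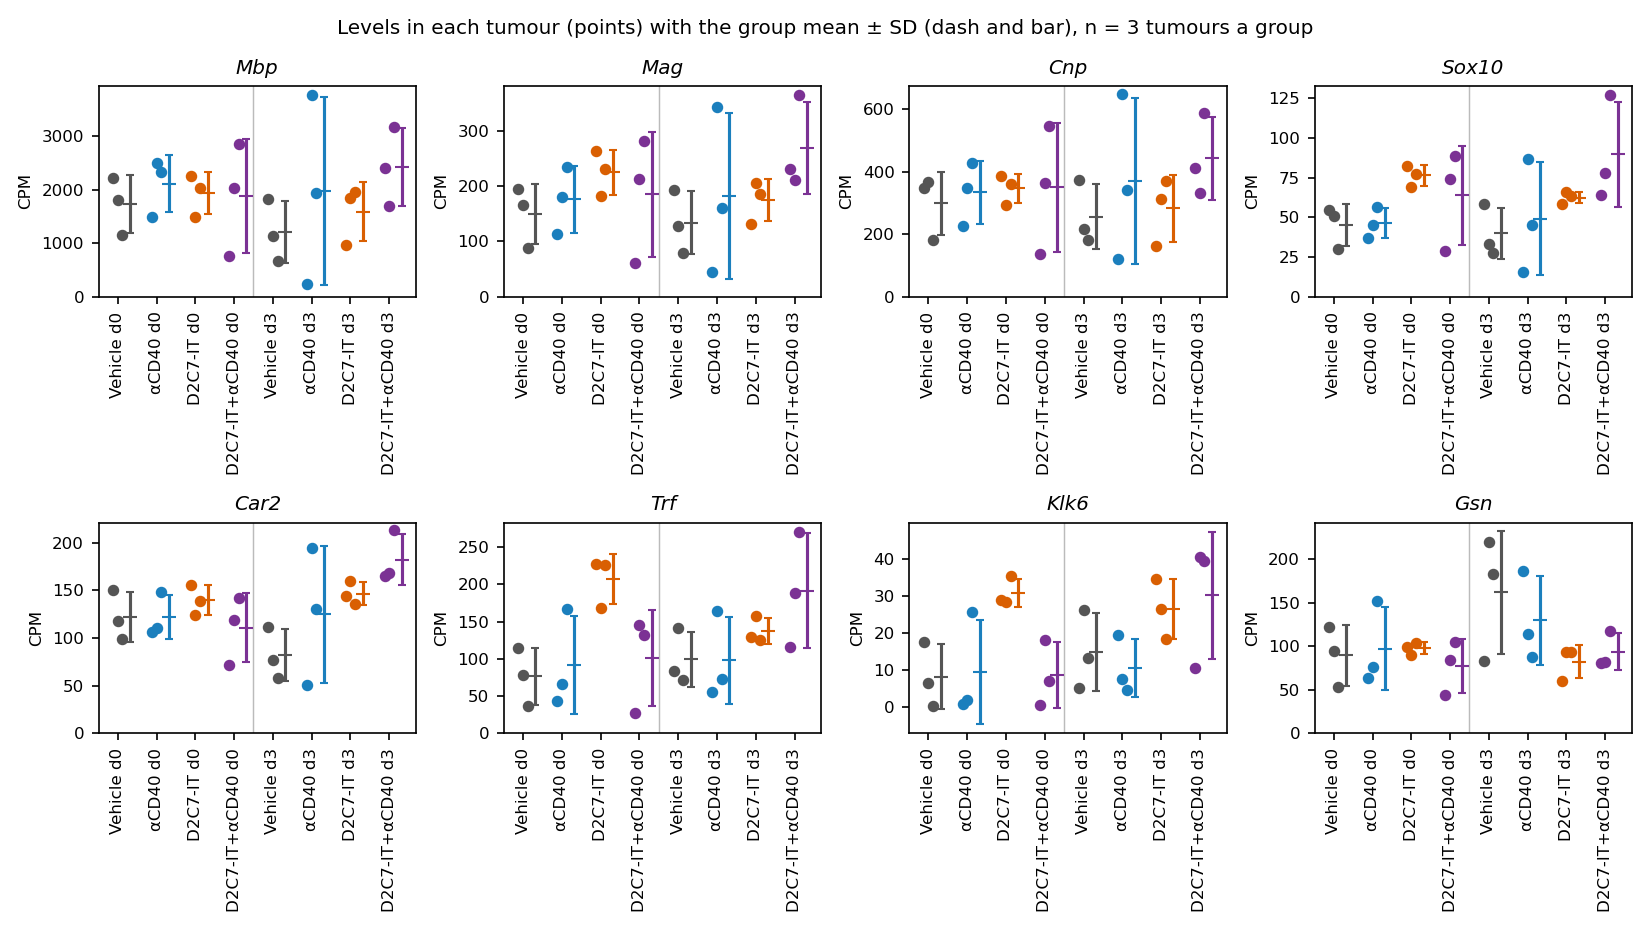
CPM of 8 members in every tumour (points), with the mean (dash) and SD (bar) of each group beside them, n = 3; d0 and d3 are day 0 and day 3. Each panel has its own linear axis, on which a bar below 0 is only the SD of a skewed group. Mbp, Mag and Cnp share one pattern of tumours, Klk6 and Trf stand apart in D2C7-IT at day 0, and Gsn is highest in 2 vehicle tumours and 1 αCD40 tumour of day 3.

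The common movement can be given as a number. In each library the median member was set against its own mean over the 24 libraries, and this ran from -1.89 log2 in αCD40 day 3 replicate 1 to 1.05 in replicate 2 of the same group. In D2C7-IT+αCD40 at day 0 it was -1.18, 0.28 and 0.75. Replicate 3 of vehicle, replicate 1 of αCD40 and replicate 1 of the combination held the lowest value of their day 0 group for 33 of 33 members. αCD40 day 3 replicate 1 was the lowest of all 24 libraries for 24 members, αCD40 day 3 replicate 2 the highest for 17 and D2C7-IT+αCD40 day 3 replicate 3 the highest for 9. The departure of a gene from the median member had an SD over libraries of 0.14 log2 for Mag, 0.17 for Cnp and 0.18 for Tspan2, against 1.79 for Klk6, 0.87 for Gsn, 0.72 for Evi2a, 0.64 for Aspa and 0.63 for Trf. In unsorted tissue, fewer oligodendrocytes in the piece and less RNA per oligodendrocyte cannot be told apart.

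Within a group, the highest tumour exceeded the lowest by more for these genes than for the median gene. The median ratio over the 33 members was 1.99 in vehicle, 1.82 in αCD40, 1.44 in D2C7-IT and 4.08 in D2C7-IT+αCD40 at day 0. Over all genes with at least 1 CPM the median ratio was 1.30, 1.29, 1.26 and 1.40. At day 3 the members' ratios were 2.25, 7.23, 1.89 and 1.80, against 1.91, 2.14, 1.38 and 1.28 for all genes. D2C7-IT at day 0 was the most even group and αCD40 at day 3 the least.

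The upstream sequences of 4 members are shown because Mag and Cnp followed the median member most closely, Klk6 departed most, and Mog is a surface marker of the mature sheath. They come from RefSeq (GRCm38.p6), end at the gene's start or short of it, run 5′ to 3′ on the gene's strand, and carry matches to 3 motifs in capitals on either strand. These were a core of the SOX family, which includes Sox10 (ACAAAG or ACAATG), a core bound by Myrf (CTGGCAC or CTGGTAC), and the E-box of helix-loop-helix factors such as Olig1 (CAGATG or CAGCTG). No 2 of the motifs overlap in the windows printed. Where a gene had several starts, the window with most motif matches was printed, and of equal ones the most upstream.
Mag, chr7:30914923-30915172, minus strand: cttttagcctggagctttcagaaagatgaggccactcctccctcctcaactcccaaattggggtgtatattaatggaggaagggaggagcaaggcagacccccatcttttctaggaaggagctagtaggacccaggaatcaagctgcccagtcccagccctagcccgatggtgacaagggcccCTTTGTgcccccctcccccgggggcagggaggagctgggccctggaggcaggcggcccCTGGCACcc
Cnp, chr11:100574689-100574903, plus strand: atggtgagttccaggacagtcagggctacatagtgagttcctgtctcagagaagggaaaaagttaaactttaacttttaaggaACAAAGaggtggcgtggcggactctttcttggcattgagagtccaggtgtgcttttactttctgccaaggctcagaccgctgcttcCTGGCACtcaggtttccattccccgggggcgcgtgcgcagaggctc
Mog, chr17:37023399-37023648, minus strand: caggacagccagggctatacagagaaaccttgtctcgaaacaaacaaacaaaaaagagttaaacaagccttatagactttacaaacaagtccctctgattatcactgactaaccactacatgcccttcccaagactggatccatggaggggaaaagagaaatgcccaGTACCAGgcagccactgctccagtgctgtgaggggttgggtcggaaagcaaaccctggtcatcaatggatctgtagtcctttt
Klk6, chr7:43824294-43824498, plus strand: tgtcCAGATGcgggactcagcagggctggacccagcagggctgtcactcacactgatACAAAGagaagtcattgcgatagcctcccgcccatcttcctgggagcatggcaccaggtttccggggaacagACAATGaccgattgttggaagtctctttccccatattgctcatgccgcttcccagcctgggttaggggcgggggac

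Mag and Cnp each carried 1 SOX core and 1 Myrf core, Mog 1 Myrf core, and Klk6 2 SOX cores and 1 E-box but no Myrf core in this window. Because windows were picked by their matches, these counts are the highest of each gene's starts. Another start of Klk6 held 0 matches, and the other starts of Mag held 2 and 0. Promoters of 23 of the 33 members were in the RefSeq table, 31 in all, and were searched over the 250 bases before the start. The SOX core was in 13 of them (41.9%), against 25.2% of all 32851 promoters. The Myrf core was in 6 (19.4%) against 5.9%, and the E-box in 14 (45.2%) against 25.5%. Both the SOX and the Myrf core were in 4 promoters (12.9%), of 3 members, against 1.6% of all. Promoters of 1 gene can share bases, so they are not independent, and a match is only these letters in this window.

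Some libraries stood apart in ways that touch every comparison with vehicle or αCD40 of day 3. Egfr, the target of D2C7-IT, whose count can hold transgene and endogenous reads, lay at 289 to 357 CPM in vehicle day 3 replicates 2 and 3 and αCD40 day 3 replicate 1, against 12.9 to 49.6 CPM in the other 21 libraries. In these 3 libraries, on the mean log2(CPM + 0.05) of a list, the cell cycle genes lay at 6.70 to 6.98 against 0.12 to 3.85. The 10 neuron genes lay at 7.51 to 8.29 against 8.64 to 9.57, and the 10 astrocyte genes at 6.84 to 7.45 against 7.76 to 8.48. The 33 members lay at 4.31 to 5.60 against 4.61 to 6.85, and for 31 of them the 3 libraries overlapped the other 21. Mal was lower in all 3 (18.1 to 86.4 against 91.2 to 397 CPM) and Gsn higher in all 3 (183 to 220 against 44.1 to 152 CPM). Low member levels were not confined to these libraries, since D2C7-IT+αCD40 day 0 replicate 1, with 14.7 CPM of Egfr, averaged 4.61. Brain markers were present in every library, and of the peripheral glia markers Pmp2 was at 0 in 19 libraries and Foxd3 at 0 in 17. Drp2 (23.3 to 111 CPM), Egr2 (2.38 to 61.8), Cdh19 (2.66 to 18.8), Prx (1.41 to 15.3) and Ncmap (0.364 to 2.26) had counts in every library. Prx lay at 13.8 to 15.3 CPM in the 3 libraries high in Egfr against 1.41 to 3.88 in the other 21. DESeq2 called Prx lower and Egr2 and Cdh19 higher than in vehicle at day 3 after D2C7-IT and after the combination.

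**Figure D3:**
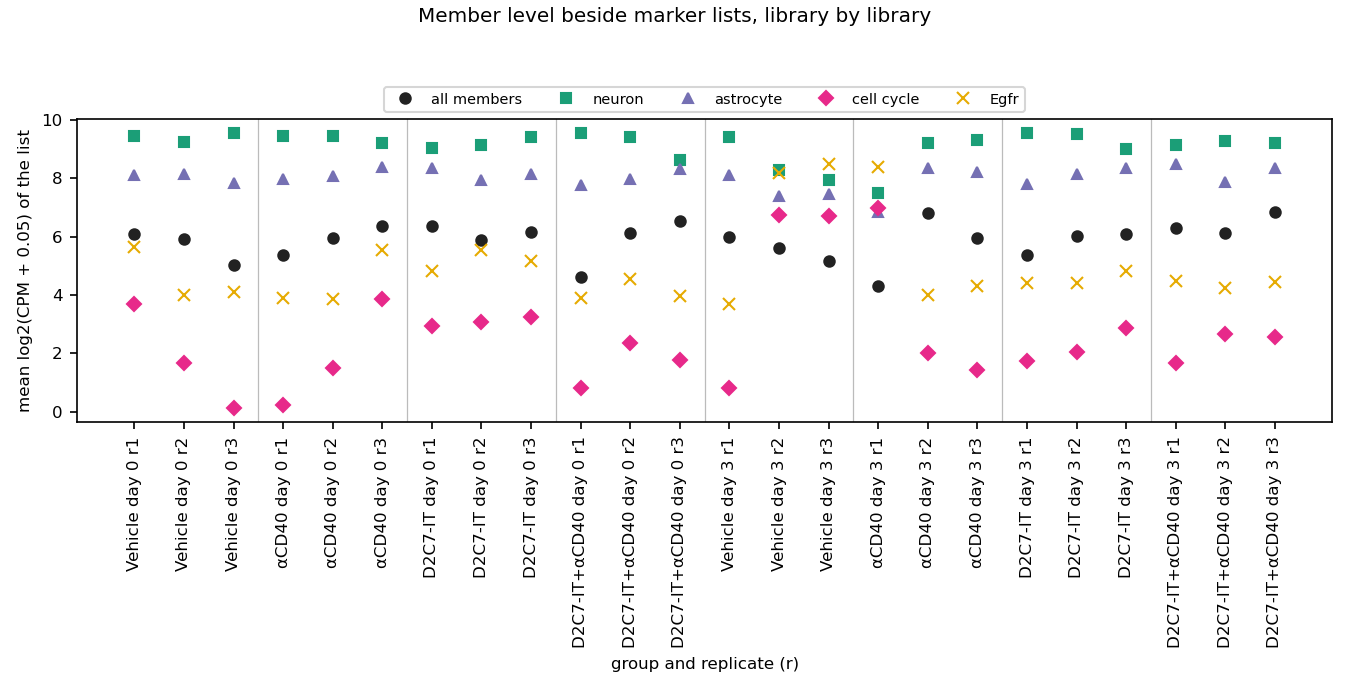
Mean log2(CPM + 0.05) of the 33 members (black circles), of 10 neuron, 10 astrocyte and 10 cell cycle genes, and the same value of Egfr alone (crosses), in each of the 24 libraries; lines part the groups. The 3 libraries with Egfr above 8 on this scale also have the highest cell cycle and the lowest neuron and astrocyte values, while the member level varies among the other 21 libraries as well.

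At day 0, the members after αCD40 lay near vehicle. Of 33, 27 had a log2 fold change above 0, with a median of 0.14, where the median of all 22280 genes tested was 0.00. The largest difference was that of Apod, 427 ± 173 CPM against 227 ± 102 (log2 fold change 0.86 ± 0.35 SE, edgeR adjusted p = 1.00). Mobp (0.60 ± 0.70), Mal (0.53 ± 0.68), Tspan2 (0.37 ± 0.52) and Cldn11 (0.31 ± 0.52) followed, each with an edgeR adjusted p of 1.00. Under edgeR's test 0 members passed, as 0% of all genes did, and 1 member had an unadjusted p under 0.05, against 1.36% of all genes. In 0 members did all αCD40 tumours lie above all vehicle tumours, against 5.10% of all genes. The median turned to -0.11 without vehicle replicate 3 and to -0.03 without αCD40 replicate 3. The p-values measure only the spread between tumours that the labels list as separate samples.

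After D2C7-IT at day 0, a few members were higher than in vehicle while most of the sheath genes lay close to it. Trf stood at 207 ± 33.9 CPM against 76.4 ± 38.9 (1.38 ± 0.57, edgeR adjusted p = 0.945) and Apod at 399 ± 104 against 227 ± 102 (0.76 ± 0.35, edgeR adjusted p = 1.00). Klk6 stood at 30.8 ± 3.89 against 8.25 ± 8.77 CPM (1.85 ± 1.17), and Cldn11 (0.88 ± 0.52) and Ermn (0.90 ± 0.58) had the next smallest p, each with an edgeR adjusted p of 1.00. The 4 transcription factors had a median of 0.65 and the 5 secreted, stress and cytoskeletal members one of 0.76, against 0.19 for the 13 sheath members, 0.05 for the 6 enzymes and 0.15 for all 33. In 7 members, Opalin, Cldn11, Ermn, Myrf, Sox10, Trf and Klk6, every D2C7-IT tumour lay above every vehicle tumour, which held for 14.1% of all genes. In the edgeR fit 0 members passed, where 0.0808% of all genes did, and 2 (Trf and Apod) had an unadjusted p under 0.05, against 4.52% of all genes. Without each replicate in turn the median lay between 0.01 and 0.34. Beside this, 1 of 10 neuron genes lay above 0 (median -0.30), 5 of 10 astrocyte genes (-0.08) and 10 of 10 cell cycle genes (0.41), and the part of cell composition was not tested.

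After the combination at day 0, 24 of 33 members had a log2 fold change above 0, with a median of 0.18. The smallest p were those of Apod (323 ± 126 against 227 ± 102 CPM, 0.49 ± 0.35), Nkx6-2 (0.82 ± 0.67), Sox10 (64.0 ± 31.3 against 45.4 ± 13.1 CPM, 0.46 ± 0.46), Opalin (0.62 ± 0.66) and Cldn11 (0.42 ± 0.52), all with an edgeR adjusted p of 1.00. By edgeR 0 members and 0% of all genes passed, and 0 members had an unadjusted p under 0.05, against 3.03% of all genes. In 0 members did the groups part upward, against 6.00% of all genes. The median was -0.24 without combination replicate 3, -0.05 without vehicle replicate 3 and 0.59 without combination replicate 1.

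At day 3 most members had higher means in all 3 treatments than in vehicle, and most clearly in the combination, but 2 of the 3 vehicle tumours were among the libraries high in Egfr and cell cycle genes. Their part in these differences was not tested. After αCD40, 29 of 33 members had a log2 fold change above 0, with a median of 0.45. Beside them, 10 of 10 neuron genes lay above 0 (median 0.20), 9 of 10 astrocyte genes (0.26) and 0 of 10 cell cycle genes (-0.67). Car2 stood at 125 ± 71.8 CPM against 82.3 ± 27.1 (0.60 ± 0.34) and Qdpr at 162 ± 82.7 against 115 ± 24.4 (0.49 ± 0.34), followed by Opalin (0.94 ± 0.67), Pllp (0.70 ± 0.52) and Gpr37 (0.81 ± 0.64), each with an edgeR adjusted p of 0.998. Under edgeR's test 0 members and 0% of all genes passed, and 0 members had an unadjusted p under 0.05, against 1.91% of all genes. In 0 members did αCD40 lie wholly above vehicle, against 1.65% of all genes. Single αCD40 tumours moved the result either way. Without replicate 1 of αCD40, Car2 passed (0.98 ± 0.27, edgeR adjusted p = 0.0456), and without replicate 2 the median turned to -0.25. Without the 3 libraries high in Egfr, which leaves 1 vehicle tumour, the median was 0.46 and 33 of 33 members lay above 0. The neuron, astrocyte and cell cycle medians were then -0.14, 0.11 and 0.84.

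After D2C7-IT at day 3, Car2 and Sox10 were higher and Gsn, Evi2a and Aspa lower on average than in vehicle. Car2 stood at 147 ± 12.2 CPM against 82.3 ± 27.1 (0.87 ± 0.35, edgeR adjusted p = 0.117) and Sox10 at 62.4 ± 3.63 against 39.8 ± 16.1 (0.68 ± 0.46, edgeR adjusted p = 0.332). Gsn stood at 82.4 ± 19.0 CPM against 162 ± 70.8 (-0.93 ± 0.39), Evi2a at 15.2 ± 6.15 against 25.5 ± 5.20 (-0.72 ± 0.37), and Aspa had -0.78 ± 0.52, with edgeR adjusted p of 0.130, 0.209 and 0.323. Of 33 members 27 had a log2 fold change above 0, with a median of 0.32. Beside them, 10 of 10 neuron genes lay above 0 (median 0.79), 9 of 10 astrocyte genes (0.45) and 0 of 10 cell cycle genes (-3.82). In the edgeR fit 0 members and 0% of all genes passed, and 2 members (Car2 and Gsn) had an unadjusted p under 0.05, against 28.2% of all genes. In 2 members, Car2 and Sox10, D2C7-IT lay wholly above vehicle, against 7.47% of all genes. Without vehicle replicate 1, which leaves only the 2 vehicle tumours high in Egfr, Car2 (1.19 ± 0.38, edgeR adjusted p = 0.0244) and Gsn (-1.23 ± 0.38, edgeR adjusted p = 0.0217) passed. Without the 3 libraries high in Egfr, which leaves 1 vehicle tumour, the median was -0.14 and 11 of 33 members lay above 0. The neuron, astrocyte and cell cycle medians were then -0.04, -0.01 and 1.64.

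After the combination at day 3, 32 of 33 members had a log2 fold change above 0, all but Gsn, and their median was 0.87, where that of all genes was 0.01. Car2 stood at 182 ± 26.7 CPM against 82.3 ± 27.1 in vehicle (1.10 ± 0.35, edgeR adjusted p = 0.109), Sox10 at 89.9 ± 33.1 against 39.8 ± 16.1 (1.12 ± 0.46, edgeR adjusted p = 0.153) and Qdpr at 203 ± 45.4 against 115 ± 24.4 (0.78 ± 0.34, edgeR adjusted p = 0.177). Opalin stood at 22.5, 26.6 and 40.9 CPM against 19.5, 7.41 and 6.07 (1.40 ± 0.67, edgeR adjusted p = 0.214). Gsn stood at 93.7 ± 20.9 CPM against 162 ± 70.8 (-0.81 ± 0.39, edgeR adjusted p = 0.205). By role, the median was 0.87 for the sheath proteins, 0.75 for the enzymes, 0.91 for the transcription factors, 1.02 for the receptor and early differentiation members and 0.50 for the secreted, stress and cytoskeletal members.

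In 14 members every combination tumour of day 3 lay above every vehicle tumour, against 9.78% of all genes: Mag, Opalin, Cldn11, Ermn, Pllp, Tspan2, Car2, Qdpr, Myrf, Sox10, Lpar1, Bcas1, Ppp1r14a and Cryab. By edgeR 0 members passed, where 0.0404% of all genes did. An unadjusted p under 0.05 was reached by 4 members (Car2, Sox10, Qdpr and Gsn), against 24% of all genes. DESeq2 called 1 member, Car2 (1.10 ± 0.35, DESeq2 adjusted p = 0.0356), 1 of 33 where 7.53% of all genes were called. Without vehicle replicate 1, edgeR called 4: Car2 (1.42 ± 0.38, edgeR adjusted p = 0.0162), Sox10 (1.54 ± 0.52, 0.0354), Gsn (-1.11 ± 0.38, 0.0373) and Opalin (2.14 ± 0.76, 0.0423). Without the 3 libraries high in Egfr, the median was 0.37 with 31 of 33 members above 0, the 1 vehicle tumour left being assumed to vary like the other groups, and Gsn turned to 0.13. Beside the members, 10 of 10 neuron genes lay above 0 (median 0.45), 9 of 10 astrocyte genes (0.51) and 0 of 10 cell cycle genes (-3.79), and without those 3 libraries these medians were -0.24, -0.18 and 1.56.

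**Figure D4:**
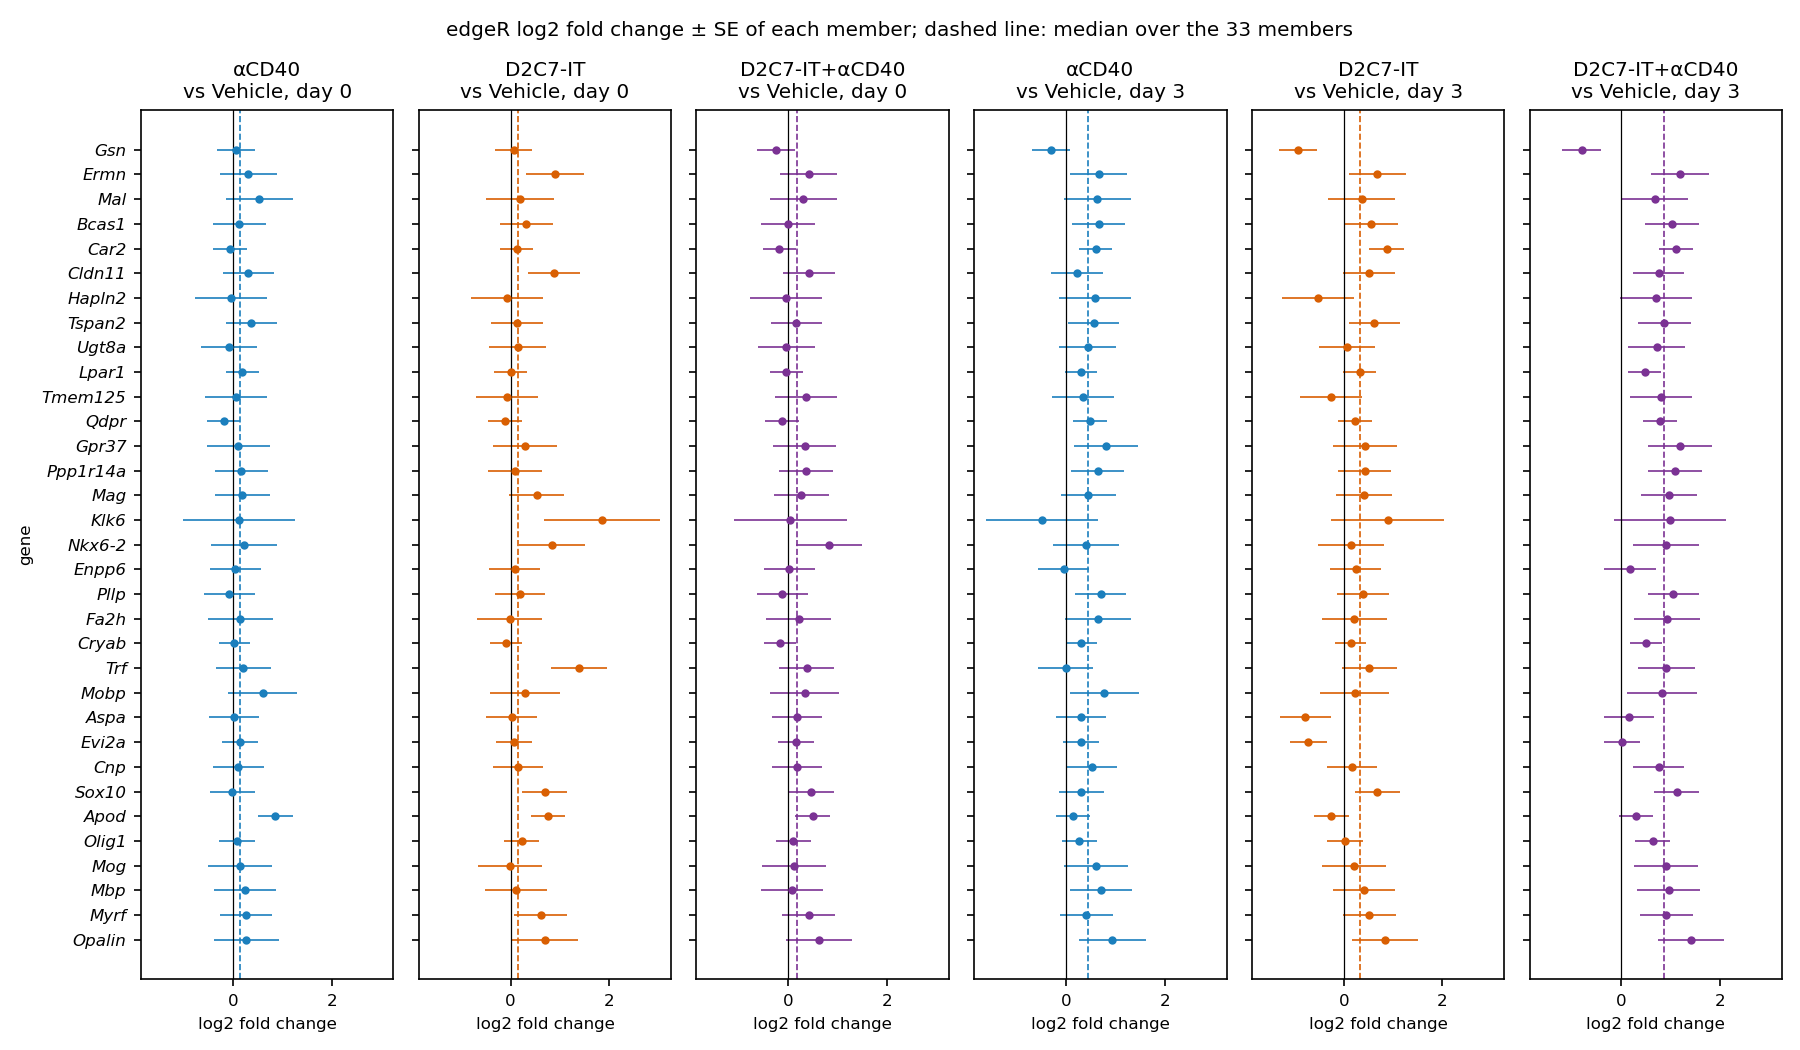
edgeR log2 fold change of each of the 33 members against vehicle of the same day (points) with its SE (bars); the solid line is 0 and the dashed line the median over the members. The median moves from 0.14, 0.15 and 0.18 at day 0 to 0.45, 0.32 and 0.87 at day 3, and most bars of single genes reach across 0 or near it.

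Set against each agent alone, the combination differed little at day 0 and had higher means than D2C7-IT in most members at day 3. By edgeR 0 members passed in any of these comparisons. At day 0 against αCD40, 18 of 33 members lay above 0 (median 0.02), with Apod at -0.38 ± 0.35, Sox10 at 0.47 ± 0.46 and Nkx6-2 at 0.60 ± 0.67 (edgeR adjusted p = 1.00 each). Under edgeR's test 0 members and 0% of all genes passed, and 0 members had an unadjusted p under 0.05, against 0.884% of all genes. Against D2C7-IT at day 0, 12 of 33 lay above 0 (median -0.05). There Trf (101 ± 64.7 against 207 ± 33.9 CPM, -1.02 ± 0.57) and Klk6 (8.66 ± 8.93 against 30.8 ± 3.89 CPM, -1.81 ± 1.17) were lower in every combination tumour than in any D2C7-IT tumour. That made 2 members, against 10.1% of all genes, and the edgeR adjusted p was 1.00 for both and for Cldn11 (-0.46 ± 0.52). In the edgeR fit 0 members and 0% of all genes passed, with 0 members at an unadjusted p under 0.05, against 2.77% of all genes.

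At day 3 the combination exceeded αCD40 in 30 of 33 members (median 0.31), but the median turned to -0.12 without αCD40 replicate 1 and reached 1.14 without αCD40 replicate 2. Sox10 (0.82 ± 0.46), Trf (0.92 ± 0.57) and Car2 (0.50 ± 0.34) had the smallest p, with edgeR adjusted p of 0.495, 0.533 and 0.580. By edgeR 0 members and 0% of all genes passed, and 0 members against 11.1% of all genes had an unadjusted p under 0.05. Against D2C7-IT at day 3, a comparison that holds none of the 3 libraries high in Egfr, 32 of 33 members lay above 0, with a median of 0.55 that stayed between 0.32 and 0.71 without each replicate in turn. In 12 members the combination lay wholly above D2C7-IT, against 8.34% of all genes: Mag, Ermn, Pllp, Tmem125, Car2, Qdpr, Lpar1, Bcas1, Ppp1r14a, Evi2a, Apod and Cryab. Neuron genes lay above 0 in 3 of 10 cases there (median -0.27), astrocyte genes in 6 of 10 (0.12) and cell cycle genes in 5 of 10 (0.03). Evi2a stood at 26.1 ± 4.57 CPM against 15.2 ± 6.15 (0.72 ± 0.37), and Aspa (0.92 ± 0.52) and Olig1 (0.61 ± 0.36) followed, each with an edgeR adjusted p of 1.00. Under edgeR's test 0 members and 0% of all genes passed, and 0 members had an unadjusted p under 0.05, against 2.44% of all genes.

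From day 0 to day 3 the members' means went down in vehicle and D2C7-IT and up in the combination. In vehicle, 9 of 33 lay above 0 (median -0.28), with Gsn at 162 ± 70.8 against 89.8 ± 34.9 CPM (0.78 ± 0.38, edgeR adjusted p = 0.179), Car2 at 82.3 ± 27.1 against 122 ± 26.1 (-0.63 ± 0.34, 0.210) and Evi2a at 25.5 ± 5.20 against 16.2 ± 6.11 (0.59 ± 0.37, 0.269). In the edgeR fit 0 members and 0% of all genes passed, and 0 members had an unadjusted p under 0.05, against 30.2% of all genes. Without vehicle day 3 replicate 1, Gsn passed (1.07 ± 0.38, edgeR adjusted p = 0.0330). Without the libraries high in Egfr the median was 0.24 and Gsn stood at -0.15.

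In D2C7-IT, 5 of 33 members lay above 0 (median -0.25), with Apod at 234 ± 32.3 against 399 ± 104 CPM (-0.73 ± 0.35), Cldn11 at -0.71 ± 0.52 and Ermn at -0.78 ± 0.58, each with an edgeR adjusted p of 1.00. Every day 3 tumour lay below every day 0 tumour in 6 members, Cldn11, Ermn, Myrf, Sox10, Trf and Apod, against 7.42% of all genes, and above in 1, Lpar1, against 4.36%. By edgeR 0 members and 0.00449% of all genes passed, and 0 members had an unadjusted p under 0.05, against 3.51% of all genes. In αCD40, 22 of 33 lay above 0 (median 0.08), with Evi2a at 0.74 ± 0.37, Apod at -0.44 ± 0.35 and Aspa at 0.61 ± 0.51 (edgeR adjusted p = 0.424, 0.545 and 0.567). There 0 members and 0.0583% of all genes passed by edgeR, and 0 members against 11.6% of all genes had an unadjusted p under 0.05. Its median turned to -0.55 without αCD40 day 3 replicate 2 and to -0.08 without αCD40 day 0 replicate 1, and it was 0.51 without the library high in Egfr.

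In the combination, 30 of 33 members lay above 0 from day 0 to day 3 (median 0.34), with Car2 at 182 ± 26.7 against 111 ± 35.6 CPM (0.65 ± 0.34), Pllp at 0.89 ± 0.52 and Qdpr at 0.55 ± 0.34, each with an edgeR adjusted p of 1.00. Pllp and Car2 did not overlap between the days, 2 members, against 8.33% of all genes. Under edgeR's test 0 members and 0% of all genes passed, and 0 members had an unadjusted p under 0.05, against 4.66% of all genes. The median was 0.00 without replicate 1 of day 0.

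Whether a treatment's difference from vehicle changed between the days was tested as an interaction, in which all 3 effects share the vehicle tumours. For the combination, 29 of 33 members had a larger effect at day 3 (median 0.67), led by Car2 (1.28 ± 0.49), Qdpr (0.91 ± 0.49) and Pllp (1.17 ± 0.73), with edgeR adjusted p of 0.552, 0.552 and 0.574. In the edgeR fit 0 members and 0% of all genes passed, and 1 member (Car2) had an unadjusted p under 0.05, against 8.05% of all genes. For αCD40, 27 of 33 did (median 0.28), with Apod at -0.73 ± 0.49, Qdpr at 0.68 ± 0.49 and Car2 at 0.66 ± 0.49 (edgeR adjusted p = 1.00 each), while 0 members and 0% of all genes passed by edgeR and 0 against 1.22% had an unadjusted p under 0.05. For D2C7-IT, 16 of 33 did (median -0.01), with Apod at -1.01 ± 0.49, Gsn at -0.99 ± 0.54 and Car2 at 0.75 ± 0.49 (edgeR adjusted p = 0.288, 0.319 and 0.380), while 0 members and 0% of all genes passed by edgeR and 0 against 17.6% had an unadjusted p under 0.05. Without the 3 libraries high in Egfr the medians were 0.18 for the combination, 0.28 for αCD40 and -0.53 for D2C7-IT, and the αCD40 median was -0.38 without αCD40 day 3 replicate 2.

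Other genes of the lineage were read from lists that share no gene with the 33 members. By edgeR 0 of their genes passed in any comparison with vehicle. In the combination at day 3, an unadjusted edgeR p under 0.05 was reached by 2 of 25 further oligodendrocyte genes, 3 of 12 precursor genes, 2 of 10 reactive genes, 2 of 22 cholesterol genes and 3 of 12 sphingolipid genes, against the 24% of all genes given above. DESeq2 called 0 of these at day 0 or after αCD40. It called Vcan lower in the combination at day 3. After D2C7-IT at day 3, where it called 12.8% of all genes, it called 1 further oligodendrocyte gene (Anln), 3 precursor genes (Pdgfra, Cspg4 and Vcan), 3 reactive genes (H2-K1, Psmb8 and Psmb9) and, among the cholesterol genes, Mvk, Idi1 and Fdps, all lower, and of the sphingolipid genes Cers2 lower and Smpd1, a sphingomyelinase, higher. Of 25 further oligodendrocyte genes, 21 lay above 0 in the combination at day 3 (median 0.59), and 17 did so without the libraries high in Egfr (median 0.10). Among them Ninj2, an adhesion protein, stood at 2.52 ± 0.744 CPM against 0.954 ± 0.298 (1.36 ± 0.63, edgeR adjusted p = 0.194). Anln, which myelin septins need and which dividing cells also use, stood at 35.6 ± 11.5 against 144 ± 109 CPM (-2.03 ± 0.79, edgeR adjusted p = 0.139).

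The 12 precursor genes split between the libraries. Pdgfra, the growth factor receptor of precursors, lay at 131 to 138 CPM in the 3 libraries high in Egfr against 38.1 to 81.9 in the other 21, Cspg4, the NG2 proteoglycan, at 76.3 to 83.7 against 18.6 to 39.1, and Vcan, the proteoglycan versican, at 236 to 250 against 19.2 to 56.5. Ptprz1, Tnr and Sox6, also expressed by precursors, were lower there: 55.2 to 83.7 against 152 to 310 CPM, 62.3 to 90.4 against 167 to 260, and 11.5 to 14.7 against 22.1 to 38.3. These genes are expressed by other cells as well, and which cells held their RNA was not measured. Of the remaining precursor genes, Neu4 was also lower in these 3 libraries (4.89 to 6.36 against 6.43 to 14.9 CPM). Gpr17, Lhfpl3, C1ql1, Matn4 and Cacng4 overlapped the other 21, with their lowest values in these 3. After D2C7-IT at day 3, 9 of 12 precursor genes lay above 0 (median 0.28), as 9 of 12 did after the combination (0.48). Without the 3 libraries high in Egfr, which leaves 1 vehicle tumour, 3 of 12 (median -0.19) and 6 of 12 (-0.01) lay above 0. The D2C7-IT median was also -0.06 without D2C7-IT replicate 3. With all libraries, lower after D2C7-IT were Cspg4 (log2 fold change -1.31 ± 0.35), Pdgfra (-1.21 ± 0.33) and Vcan (-2.36 ± 0.80), with edgeR adjusted p of 0.0800, 0.0800 and 0.0881.

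Genes reported in reactive oligodendrocytes, which astrocytes and immune cells share, had higher means than in vehicle at day 0 in 10 of 10 cases after αCD40 (median 0.91), 9 of 10 after D2C7-IT (0.50) and 9 of 10 after the combination (0.85). On the list level, αCD40 stood at 5.94, 6.58 and 7.94 log2 and vehicle at 6.77, 6.22 and 5.28, which overlapped. Without αCD40 replicate 3 the αCD40 median was 0.07, with 7 of 10 above 0. Without vehicle replicate 3 the medians of D2C7-IT and the combination were 0.19 and 0.54, and without vehicle replicate 1 they were 1.00 and 1.33. Serpina3n, a secreted protease inhibitor, stood at 371 ± 67.1 CPM in D2C7-IT at day 0 against 60.5 ± 48.2 in vehicle (2.56 ± 0.79, edgeR adjusted p = 0.530), and Il33, an alarm cytokine, at 68.2 ± 11.2 against 31.6 ± 6.36 (1.04 ± 0.35, edgeR adjusted p = 0.673). At day 3 the list lay at 8.31 to 8.55 log2 in the 3 libraries high in Egfr and at 5.92 to 7.90 in the other day 3 libraries. Its median in the combination was -0.63 with all libraries and 2.04 without those 3, when 10 of 10 lay above 0.

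Genes of the lipid pathways that feed myelin had medians near or below 0. Of 22 genes of cholesterol synthesis, 1, 2 and 3 lay above 0 against vehicle at day 0 after αCD40, D2C7-IT and the combination, with medians of -0.31, -0.19 and -0.22. Msmo1 and Mvd, enzymes of that pathway, stood at 47.9 ± 5.06 against 64.9 ± 9.13 CPM and at 14.7 ± 2.27 against 19.7 ± 3.19 after αCD40 (-0.48 ± 0.22 and -0.46 ± 0.21, edgeR adjusted p = 1.00 each). At day 3 their medians were -0.11, -0.22 and -0.04, with Mvk at 13.1 ± 2.10 against 25.3 ± 3.77 CPM after D2C7-IT (-0.91 ± 0.21, edgeR adjusted p = 0.0800). The 12 further genes of sphingolipid metabolism had medians between -0.12 and 0.15 in the 6 comparisons with vehicle. Among them Cers2, which makes the long-chain ceramides of myelin and is expressed in many tissues, stood at 77.6 ± 10.2 CPM against 133 ± 61.2 after the combination at day 3 (-0.80 ± 0.37, edgeR adjusted p = 0.198).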

How the data were processed

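RNA of 24 tumours was sequenced as polyadenylated RNA with the NEBNext Ultra kit, which does not mark strand. The authors deposited counts per Ensembl gene as whole numbers with no normalization. Per the submitters' processing notes, the build was GRCm38 and the tools included STAR 2.5.2b, featureCounts (Subread 1.5.2), Trimmomatic 0.36 and bcl2fastq 2.17. For the annotation release and the strand setting, the sources used here give no value. Overlaps with other genes were called from whole gene spans, introns included. Only overlaps with protein-coding genes are named. Only where exons of both genes cover the same bases can their reads not be told apart, and shared exons were not examined. The 6 tables hold 36 columns, of which 12 repeat another with 0 differing. Columns were matched to tumours by number. GENCODE M21 gave symbols, positions and exon lengths.

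The members, lists and tests were chosen with earlier results of these data known. CPM use total counts. List levels are means of log2(CPM + 0.05). In R 4.3.3 with edgeR 4.0.16, filterByExpr (minimum count 10) left 22280 genes, TMM factors ran from 0.919 to 1.056, and 1 mean per group was fitted to all 24 libraries (robust quasi-likelihood F test with 16 residual degrees of freedom and a biological coefficient of variation of 0.412). Adjusted p-values (Benjamini-Hochberg) cover every gene tested, and genes passed below 0.05. SE is the absolute log2 fold change over the square root of F. All 33 members are named with their levels. Fold changes are given for up to 5 members of smallest p in each comparison with vehicle and up to 3 in the others, and for up to 3 genes of the other lists. The alternatives were further edgeR fits and DESeq2 1.42.0, and the scripts were tested on simulated data. limma 3.58.1 was loaded with edgeR and served no alternative of its own. Replicates were no repeats of 1 library: chi-square per degree of freedom between them was at least 20.2, against 1 for sampling noise. Figures used Python 3.11.15, pandas 2.3.3 and matplotlib 3.10.9. Some genes of the other lists are not reported here.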

Additional observations from a re-analysis of the deposited data

How the results depend on the processing

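The number of members called was 0 in all 17 comparisons. Of 222 alternatives of these counts 217 gave 0 as well: RLE size factors, no filter on low counts, only the groups compared, the replicate block, the libraries high in Egfr left out, and most fits that leave out 1 replicate. DESeq2 called 1 member in D2C7-IT+αCD40 vs Vehicle, day 3, and 0 elsewhere. Without each replicate in turn the count ran from 0 to 1 in αCD40 vs Vehicle, day 3, from 0 to 2 in D2C7-IT vs Vehicle, day 3, from 0 to 4 in D2C7-IT+αCD40 vs Vehicle, day 3, and from 0 to 1 in Vehicle, day 3 vs day 0. Leaving out vehicle day 3 replicate 1 gave the last 3 of these, and αCD40 day 3 replicate 1 the first. The cause was not tested.

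Of 810 alternatives of 63 named fold changes, 795 kept their side of the threshold and their sign, 9 passed the threshold and 6 reversed. Reversed were Cldn11 in αCD40 vs Vehicle, day 0, without αCD40 day 0 replicate 3 (-0.01, up to 0.57 without other replicates), and Pllp (-0.02, up to 1.17) and Gpr37 (-0.05, up to 1.51) in αCD40 vs Vehicle, day 3, without αCD40 day 3 replicate 2. So were Nkx6-2 in D2C7-IT+αCD40 vs αCD40, day 0, without combination day 0 replicate 3 (-0.10, up to 1.07), and, without the 3 libraries high in Egfr, Gsn in D2C7-IT+αCD40 vs Vehicle, day 3 (0.13) and in Vehicle, day 3 vs day 0 (-0.15). The cause was not tested.

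Tumours with the same replicate number were not more alike on average than others, and the labels do not say how numbers were given. Over 84 pairs of tumours with the same number, deviations of all genes tested from the group means correlated by -0.033 on average (-0.913 to 0.509). For other numbers the average was 0.013. Single pairs spread widely, so these averages cannot decide whether numbers link tumours of some groups. The members alone were not checked in this way. The fit with the number as a block called 0 members. Each group had 3 tumours, and tumours of 1 group differed by up to 15.5 times in Mbp.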
